A study of Mus musculus with 3 samples.

Results

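The miR-10 family and its relatives, miR-99/100 and miR-125, were followed through small-RNA libraries of B16 melanoma exosomes, JB6 skin-cell exosomes and B16 cells. The 10 entries described were chosen by name, as 7 guide strands (5p arms) and 3 passenger strands (3p arms), out of 1915 mature miRNAs listed in each library. All 10 were listed above 0 in JB6 exosomes and in B16 cells, and 8 of 10 in B16 exosomes. B16 is a melanoma line labelled as skin of strain C57BL/6J, and it gave the exosome library and the cell library. JB6, from skin too, has the labels normal and strain BALB/c, and it gave an exosome library and no cell library. Cell line, strain and disease state therefore cannot be told apart between the exosome libraries. Between JB6 exosomes and B16 cells these differ along with exosome against cell, and none of them can be told apart there. No treatment is named for any of the libraries. Exosomes, the vesicles that cells release, had been spun down by ultracentrifugation before RNA was taken with Trizol. With 1 library per group, no comparison can be set against replicate spread, and every interval given is an exact 95% interval for counting error.

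These families are among the oldest animal miRNAs and share a common ancestry with miR-10. miR-10a and miR-10b lie inside the Hox gene clusters, which pattern the body axis, and miR-10b is studied for its part in tumour cell invasion. miR-99a, miR-99b and miR-100 restrain growth signalling through mTOR, and miR-125a and miR-125b are the vertebrate relatives of lin-4 of Caenorhabditis elegans. In vertebrates the miR-99/100 and miR-125 hairpins stand in clusters with a let-7 hairpin between them. From each hairpin 1 arm is usually kept as the guide and the other, the passenger, is mostly degraded.

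The mature sequences from RefSeq (GRCm38.p6) are shown because the comparisons turn on which near-identical entry held the reads. All 10 entries and the 5 remaining arms of the same hairpins were matched in that table. Capitals mark the seed, bases 2 to 8 from the 5′ end.
miR-10a-5p: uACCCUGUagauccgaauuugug
miR-10b-5p: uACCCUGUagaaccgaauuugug
miR-99a-5p: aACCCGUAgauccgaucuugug
miR-100-5p: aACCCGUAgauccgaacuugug
miR-99b-5p: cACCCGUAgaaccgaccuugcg
miR-125a-5p: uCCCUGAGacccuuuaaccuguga
miR-125b-5p: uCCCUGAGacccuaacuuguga
miR-125b-1-3p: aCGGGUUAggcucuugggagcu
miR-125b-2-3p: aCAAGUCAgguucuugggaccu
miR-125a-3p: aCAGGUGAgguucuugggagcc
The guide strands fall into 3 seeds, one per family. miR-10a-5p differs from miR-10b-5p at 1 of 23 bases, by A12U, counted from 1 at the 5′ end with the miR-10b-5p base first. miR-100-5p differs from miR-99a-5p at 1 of 22 bases, by U16A with the miR-99a-5p base first, whereas miR-99b-5p differs from miR-99a-5p at 4 bases, by A1C, U11A, U16C and U21C. miR-125a-5p and miR-125b-5p share their first 13 bases and are 24 and 22 bases long. miR-125b-5p is made with the same sequence by the hairpins Mir125b-1 and Mir125b-2, so its reads do not name their source. The passenger strands of these hairpins do, since they differ at 5 of 22 bases, by A3G, A4G, C7U, U11C and C20G with the miR-125b-2-3p base first.

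In the mouse build GRCm38, Mir10a lies at chr11:96317165-96317274, outside other annotated genes, and Mir10b at chr2:74726070-74726137, in introns of Hoxd3 and Hoxd4. Mir99a, at chr16:77598936-77599000, and Mir125b-2, at chr16:77646273-77646343, lie in introns of the non-coding host gene Mir99ahg and span 47.4 kb with Mirlet7c-1. Mir100, at chr9:41531425-41531504, and Mir125b-1, at chr9:41581926-41582002, lie in introns of the non-coding gene 3110039I08Rik and span 50.6 kb with Mirlet7a-2. Mir99b, at chr17:17830188-17830257, lies in an intron of Spaca6, and Mir125a, at chr17:17830812-17830879, overlaps an exon of that gene. With Mirlet7e they span 0.692 kb. All of these hairpins lie on the plus strand.

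Depth differed widely, with 45677 miRNA reads in B16 exosomes, 4495956 in JB6 exosomes and 7925726 in B16 cells. No count between 1 and 9 was listed, so a listed 0 allows up to 9 reads, which is 197 RPM (reads-per-million miRNA reads) in B16 exosomes, 2.002 RPM in JB6 exosomes and 1.14 RPM in B16 cells. Of the melanocyte markers miR-211-5p, miR-204-5p and miR-137-3p, 1 was listed above 0 in B16 exosomes, 1 in JB6 exosomes and 2 in B16 cells, with summed levels of 1817 RPM, 3.11 RPM and 2667 RPM. Of 7 epithelial and keratinocyte markers 0, 2 and 4 were listed, at 0 RPM, 7.78 RPM and 24.9 RPM, and miR-205-5p was at 0 throughout. The liver miRNA miR-122-5p took 0.0525% of reads in B16 exosomes, 25.1% in JB6 exosomes, which are labelled as skin, and 0.00531% in B16 cells. The 3 red-cell markers were listed at 0 in B16 exosomes and summed to 0.748% in JB6 exosomes and 0.00209% in B16 cells, where miR-144-3p was at 0. The 3 muscle markers were likewise at 0 in B16 exosomes and summed to 0.371% in JB6 exosomes and 0.000139% in B16 cells. Of 4 leukocyte markers 0, 3 and 1 were listed, at 0 RPM, 15.3 RPM and 1.26 RPM. The part of such other sources in the family results was not tested.

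The 10 entries together held 8.21% of miRNA reads in B16 exosomes (7.96 to 8.47), 14.4% in JB6 exosomes (14.36 to 14.43) and 8.04% in B16 cells (8.02 to 8.06). B16 exosomes and their parent cells thus gave these families an almost equal summed share, while JB6 exosomes gave them a larger one. The miR-10 guides accounted for 5.41%, 6.80% and 4.94% of miRNA reads in B16 exosomes, JB6 exosomes and B16 cells. The miR-99/100 guides held 2.69%, 6.16% and 2.82% in the same order of libraries, and the miR-125 guides 0.0810%, 0.633% and 0.187%. The order miR-10, then miR-99/100, then miR-125 therefore held in every library. Mature lengths were 22 to 24 bases. No correction for length or sequence was made, so the order is one of reads.

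**Figure D1:**
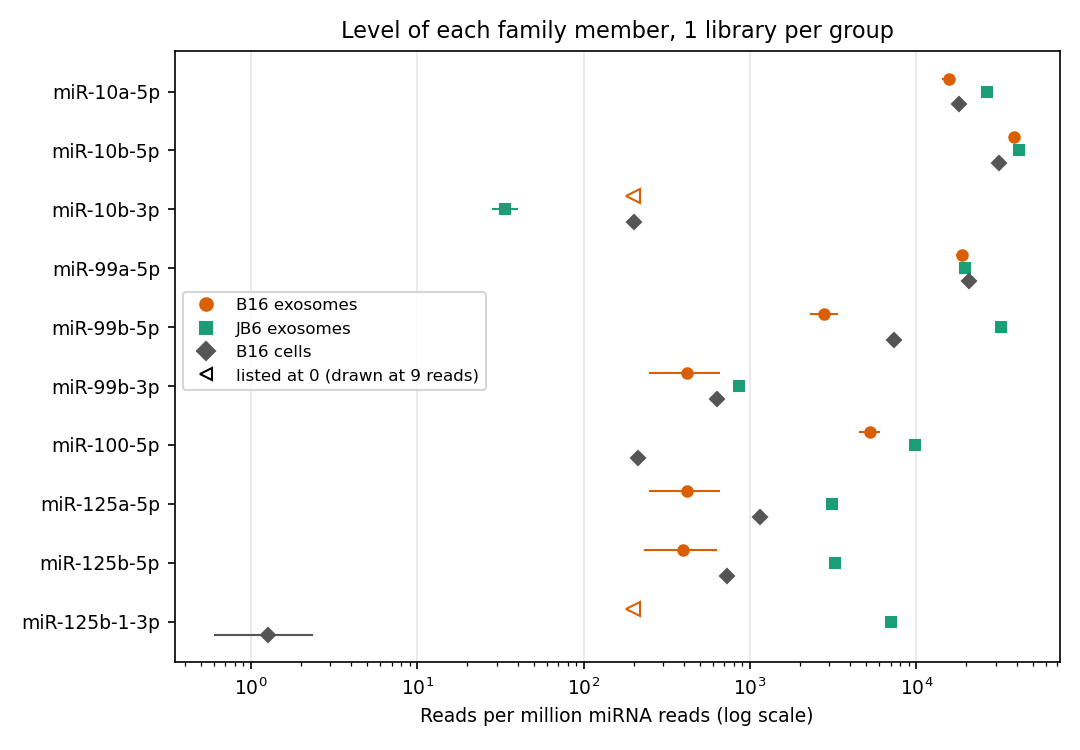
Level of each member in reads-per-million miRNA reads (log axis) in the B16 exosome, JB6 exosome and B16 cell library, with exact 95% counting intervals. Open triangles stand at 9 reads for a listed 0. miR-10a-5p, miR-10b-5p and miR-99a-5p lie close together in share in the 3 libraries, whereas miR-125b-1-3p stands at 7084 RPM in JB6 exosomes and 1.26 RPM in B16 cells.

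miR-10b-5p, the more abundant miR-10 guide, had 1756 reads in B16 exosomes, 186628 in JB6 exosomes and 248090 in B16 cells. These are 3.84% (3.67 to 4.02), 4.15% (4.13 to 4.17) and 3.13% (3.12 to 3.14) of miRNA reads, and ranks 6, 4 and 9 among all listed miRNAs. miR-10a-5p had 713, 119216 and 143555 reads in the same libraries, or 1.56% (1.45 to 1.68), 2.65% (2.64 to 2.67) and 1.81% (1.80 to 1.82), at ranks 17, 9 and 15. As shares of miRNA reads, both guides stayed within 2-fold between any pair of libraries, which other scalings ended. With TMM and DESeq2 factors, both scaled on the typical miRNA, JB6 exosomes over B16 cells gave 3.73 and 8.75 for miR-10a-5p and 3.38 and 7.92 for miR-10b-5p. B16 over JB6 exosomes then gave 0.114 and 0.0903 for miR-10a-5p and 0.179 and 0.142 for miR-10b-5p. The share ratio of B16 exosomes over B16 cells was 1.23 for miR-10b-5p (1.17 to 1.29) and 0.862 for miR-10a-5p (0.800 to 0.928), against 0.0728 and 0.0511 with the authors' totals, and 0.425 for miR-10a-5p with TMM.

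Within the miR-10 pair, miR-10b-5p outnumbered miR-10a-5p in every library, by 2.46 to 1 in B16 exosomes, 1.57 to 1 in JB6 exosomes and 1.73 to 1 in B16 cells. miR-10a-5p made up 28.9% of the pair in B16 exosomes (27.1 to 30.7), 39.0% in JB6 exosomes (38.8 to 39.2) and 36.7% in B16 cells (36.5 to 36.8). A share within a family needs no scaling between libraries. The odds of miR-10a-5p against miR-10b-5p were 0.702 times as high in B16 exosomes as in B16 cells (0.642 to 0.766) and 0.636 times as high as in JB6 exosomes (0.582 to 0.694). In JB6 exosomes they were 1.10 times those of B16 cells (1.09 to 1.11). The B16 exosome balance thus leaned most to miR-10b-5p, by a difference larger than counting error. It rests on reads told apart at 1 base, whose assignment is not given here, and its part was not tested.

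The passenger strands of both miR-10 hairpins were scarce and moved together. miR-10b-3p was listed at 0 in B16 exosomes, with 152 reads in JB6 exosomes (33.8 RPM, 28.6 to 39.6) and 1588 in B16 cells (200.4 RPM, 190.6 to 210.5). miR-10a-3p, the matching arm of miR-10a, was listed at 0, 109 and 892 reads. The 3p arm made up 0.0814% of miR-10b reads in JB6 exosomes (0.0690 to 0.0954) against 0.636% in B16 cells (0.605 to 0.668). For miR-10a it made up 0.0913% (0.0750 to 0.110) against 0.618% (0.578 to 0.659). In both deep libraries the 2 hairpins therefore had nearly equal arm balances, and the odds of the 3p arm were 7.86-fold lower for miR-10b (6.65 to 9.35) and 6.80-fold lower for miR-10a (5.56 to 8.37) in JB6 exosomes than in B16 cells. At the B16 cell share 9.15 reads of miR-10b-3p and 5.14 of miR-10a-3p would be predicted in the B16 exosome library, so the listed 0 there carries little information.

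miR-99a-5p, the leading miR-99/100 guide of the B16 libraries, had 860 reads in B16 exosomes, 87643 in JB6 exosomes and 163893 in B16 cells. These are 1.88% (1.76 to 2.01), 1.95% (1.94 to 1.96) and 2.07% (2.06 to 2.08) of miRNA reads. As a share of miRNA reads it was the most even of the 10 entries, with a ratio of 0.910 for B16 exosomes over B16 cells (0.851 to 0.974), 0.966 for B16 over JB6 exosomes (0.902 to 1.03) and 0.943 for JB6 exosomes over B16 cells (0.935 to 0.9505), the last of which turned to 2.40 with TMM scaling and 5.63 with DESeq2 factors. Those scalings put B16 over JB6 exosomes at 0.187 and 0.148, and TMM put B16 exosomes over B16 cells at 0.449.

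miR-100-5p, which differs from miR-99a-5p at a single base, had 239 reads in B16 exosomes, 44046 in JB6 exosomes and 1670 in B16 cells. These are 5232 RPM (4591 to 5937), 9797 RPM (9706 to 9888) and 211 RPM (201 to 221). Both exosome libraries were high and the B16 cell library was low. The share ratio was 24.8 for B16 exosomes over B16 cells (21.6 to 28.5), 0.534 for B16 over JB6 exosomes (0.468 to 0.606) and 46.5 for JB6 exosomes over B16 cells (44.3 to 48.9). For B16 exosomes over B16 cells it was 12.3 with TMM and 1.47 with the authors' totals, which is no longer past 2-fold. For B16 over JB6 exosomes it was 0.103 with TMM, 0.0819 with DESeq2 factors, 0.0360 with the authors' totals and 0.366 without the most abundant miRNAs, all past 2-fold. Of the pair miR-100-5p and miR-99a-5p, miR-100-5p made up 21.7% in B16 exosomes (19.3 to 24.3), 33.4% in JB6 exosomes (33.2 to 33.7) and 1.01% in B16 cells (0.961 to 1.06). Its odds against miR-99a-5p were 27.3 times as high in B16 exosomes as in B16 cells (23.3 to 31.8). Taken as 1 entry, the pair had a ratio of 1.15 for B16 exosomes over B16 cells and 1.40 for JB6 exosomes over B16 cells. As miR-99a-5p held most reads of the pair in every library, the pair ratio mostly follows it and cannot test the miR-100-5p difference. Both differences of miR-100-5p from B16 cells rest on reads told apart at the single base. How reads one base away were assigned is not given here, and the part of that assignment was not tested.

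The B16 exosome library held miR-122-5p at 478-fold below JB6 exosomes (321 to 746) and miR-125b-1-3p at least 36.0-fold below. Its miR-100-5p share was 1.87-fold below that of JB6 exosomes (1.65 to 2.14). Its miR-122-5p share was 9.89-fold above that of B16 cells (6.27 to 14.9), on 24 reads. The authors' totals moved every log2 ratio of B16 exosomes over B16 cells by -4.08, which put miR-122-5p below B16 cells instead. Whether these levels have a common source was not tested.

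miR-99b-5p, from the chromosome 17 cluster, showed another order. It had 128 reads in B16 exosomes, 145468 in JB6 exosomes and 58325 in B16 cells, or 0.280% (0.234 to 0.333), 3.24% (3.22 to 3.25) and 0.736% (0.730 to 0.742). Its share was 2.63-fold lower in B16 exosomes than in B16 cells (2.21 to 3.15), 11.5-fold lower than in JB6 exosomes (9.71 to 13.8), and 4.40-fold higher in JB6 exosomes than in B16 cells (4.35 to 4.44). Its passenger miR-99b-3p had 19 reads in B16 exosomes, 3834 in JB6 exosomes and 5045 in B16 cells, or 416 RPM (250 to 650), 853 RPM (826 to 880) and 637 RPM (619 to 654). The passenger thus varied less than its guide between the deep libraries, with a ratio of 1.34 for JB6 exosomes over B16 cells (1.28 to 1.40), or 3.41 with TMM and 8.01 with DESeq2 factors, which move the guide by the same factor. The 3p arm made up 12.9% of miR-99b reads in B16 exosomes (7.96 to 19.4), 2.57% in JB6 exosomes (2.49 to 2.65) and 7.96% in B16 cells (7.75 to 8.17). Its odds were 5.63-fold higher in B16 than in JB6 exosomes (3.28 to 9.17), and 1.72-fold higher in B16 exosomes than in B16 cells with an interval that reached 1 (0.9996 to 2.79).

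Within the miR-99/100 family, miR-99a-5p held 70.1% in B16 exosomes (67.4 to 72.6), 31.6% in JB6 exosomes (31.4 to 31.8) and 73.2% in B16 cells (73.0 to 73.4), and led in both B16 libraries. miR-99b-5p held 10.4% in B16 exosomes (8.78 to 12.3), 52.5% in JB6 exosomes (52.3 to 52.7), where it led, and 26.1% in B16 cells (25.9 to 26.2). miR-100-5p held 19.5% in B16 exosomes (17.3 to 21.8), 15.9% in JB6 exosomes (15.8 to 16.03) and 0.746% in B16 cells (0.711 to 0.782). The second place in the family was thus miR-100-5p in B16 exosomes, miR-99a-5p in JB6 exosomes and miR-99b-5p in B16 cells. The passengers miR-99a-3p and miR-100-3p were at or near 0. miR-99a-3p had a listed 0 in both exosome libraries and 16 reads in B16 cells, and miR-100-3p was listed at 0 in all 3. Against 44046 guide reads in JB6 exosomes, that limits miR-100-3p to at most 0.0204% of its hairpin's reads.

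**Figure D2:**
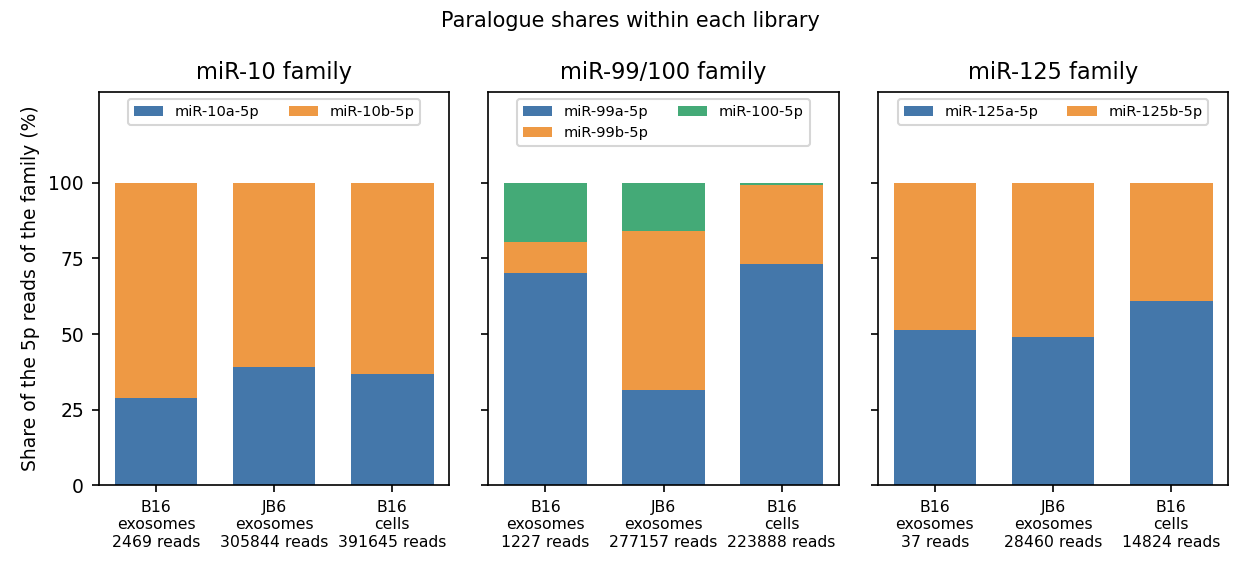
Share of each paralogue in the guide-strand reads of its family (percent), by library, with the reads of the family under each bar. miR-100-5p takes 19.5% of the miR-99/100 guides in B16 exosomes and 15.9% in JB6 exosomes, against 0.746% in B16 cells, and miR-99b-5p leads in JB6 exosomes.

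The miR-125 guides were the scarcest. miR-125a-5p had 19 reads in B16 exosomes, 13962 in JB6 exosomes and 9048 in B16 cells, or 416 RPM (250 to 650), 3105 RPM (3054 to 3157) and 1142 RPM (1118 to 1165). miR-125b-5p, known in human and zebrafish to act on p53, had 18, 14498 and 5776 reads, or 394 RPM (234 to 623), 3225 RPM (3172 to 3278) and 729 RPM (710.1 to 748). Both were highest in JB6 exosomes and lowest in B16 exosomes. miR-125a-5p was 2.74-fold lower in B16 exosomes than in B16 cells (1.76 to 4.56) and 7.47-fold lower than in JB6 exosomes (4.78 to 12.4). miR-125b-5p was 8.18-fold lower in B16 than in JB6 exosomes (5.18 to 13.8), and its ratio to B16 cells was 0.541 (0.320 to 0.855), which TMM put at 0.267 and DESeq2 factors at 0.496, both past 2-fold. In JB6 exosomes over B16 cells the ratios were 2.72 for miR-125a-5p (2.65 to 2.79) and 4.42 for miR-125b-5p (4.29 to 4.56).

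miR-125a-5p made up 51.4% of the guide pair in B16 exosomes, on 37 reads in all (34.4 to 68.1), 49.1% in JB6 exosomes (48.5 to 49.6) and 61.0% in B16 cells (60.2 to 61.8). Its odds in JB6 exosomes were 0.615 times those of B16 cells (0.590 to 0.640). Between B16 exosomes and either deep library the odds ratio was not resolved at this depth, at 0.674 against B16 cells (0.334 to 1.36) and 1.10 against JB6 exosomes (0.544 to 2.22).

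Of the miR-125 passenger strands, miR-125b-1-3p and miR-125a-3p were higher in JB6 exosomes than in B16 cells. miR-125b-1-3p was listed at 0 in B16 exosomes, had 31850 reads in JB6 exosomes (7084 RPM, 7007 to 7162) and 10 in B16 cells (1.26 RPM, 0.605 to 2.32). It was abundant in JB6 exosomes and at the smallest listed count in B16 cells. The share was 5615-fold higher in JB6 exosomes than in B16 cells (3053 to 11709.7), which was the highest ratio among the 501 miRNAs with enough reads, with an interval that held the 4730-fold of miR-122-5p (4299 to 5216). In B16 exosomes it was at least 36.0-fold lower than in JB6 exosomes, taking 9 reads for the listed 0. At the JB6 exosome share 324 reads would be predicted in the B16 exosome library, and at the B16 cell share 0.0576. The listed 0 therefore tells B16 exosomes from JB6 exosomes and not from B16 cells.

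miR-125b-2-3p, the passenger of the chromosome 16 copy, ran the other way, with a listed 0 in B16 exosomes, 161 reads in JB6 exosomes (35.8 RPM, 30.5 to 41.8) and 1070 in B16 cells (135 RPM, 127 to 143). Its share was 3.77-fold lower in JB6 exosomes than in B16 cells (3.19 to 4.48), which TMM put at a ratio of 0.676 and DESeq2 factors turned to 1.58. Of the miR-125b passenger reads, the chromosome 9 copy gave 99.5% in JB6 exosomes (99.41 to 99.57), or 198 to 1, and 0.926% in B16 cells (0.445 to 1.70), where the chromosome 16 copy led by 107 to 1. The guide they share was 4.42-fold higher in JB6 exosomes.

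The hairpins of the passengers that stood high in JB6 exosomes are shown with both arms in capitals, the guide first.
Mir125b-1: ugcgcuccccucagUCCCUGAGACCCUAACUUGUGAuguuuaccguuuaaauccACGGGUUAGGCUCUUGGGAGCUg
Mir125a: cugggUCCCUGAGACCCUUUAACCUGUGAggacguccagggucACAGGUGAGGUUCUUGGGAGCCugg
In JB6 exosomes miR-125b-1-3p outnumbered the guide of both its hairpin and Mir125b-2, so that 3p arms made up 68.8% of all miR-125b reads (68.4 to 69.2), against 15.8% in B16 cells (14.9 to 16.6). miR-125a-3p had a listed 0 in B16 exosomes, 8731 reads in JB6 exosomes (1942 RPM, 1901 to 1983) and 255 in B16 cells (32.2 RPM, 28.3 to 36.4). It made up 38.5% of miR-125a reads in JB6 exosomes (37.8 to 39.1) against 2.74% in B16 cells (2.42 to 3.09). In B16 exosomes the listed 0 limits the 3p arm to at most 32.1% for miR-125a (15.9 to 52.4), which does not tell it from either deep library. For miR-125b the limit was 50% (32.9 to 67.1), below the share in JB6 exosomes and above that in B16 cells.

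**Figure D3:**
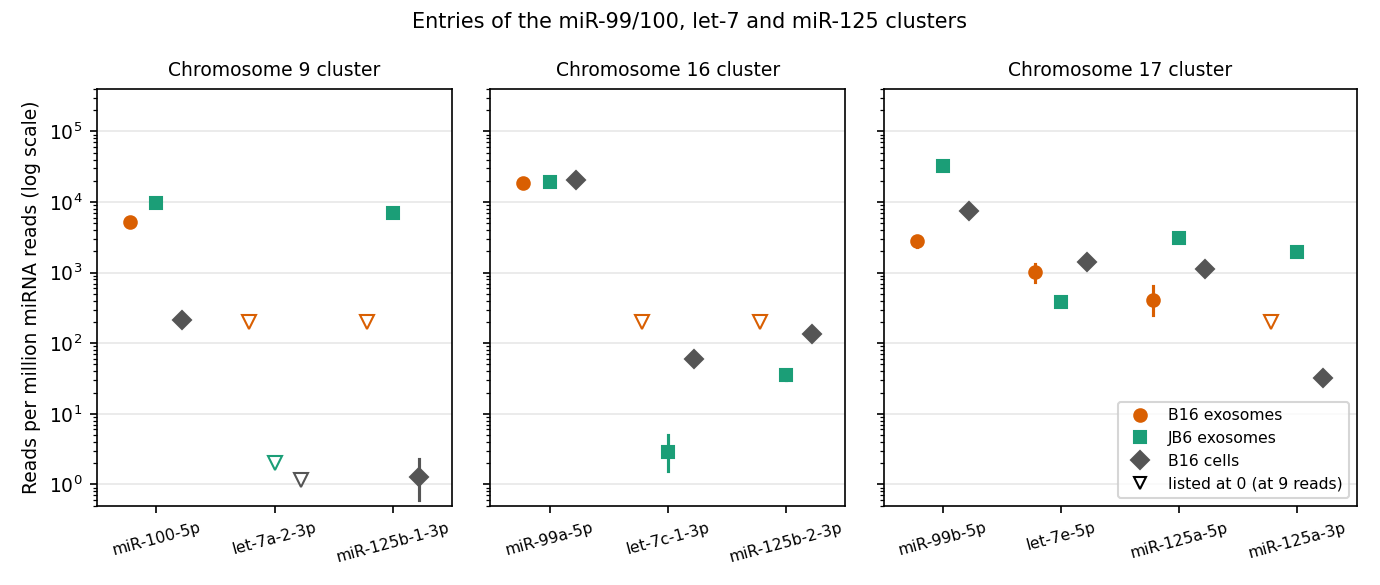
Level in reads-per-million miRNA reads (log axis) of entries from the miR-99/100, let-7 and miR-125 clusters, with exact 95% counting intervals and open triangles at 9 reads for a listed 0. On chromosome 9 miR-100-5p and miR-125b-1-3p stand high in JB6 exosomes (9797 and 7084 RPM) and low in B16 cells (211 and 1.26 RPM). On chromosome 16 miR-99a-5p is level in share, and let-7c-1-3p and miR-125b-2-3p are lower in JB6 exosomes. For miR-125b-2-3p the difference falls short of 2-fold with TMM and turns in direction with DESeq2 factors.

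Read by cluster, the entries that a single locus makes were compared between the deep libraries. On chromosome 9 both miR-100-5p and miR-125b-1-3p were higher in JB6 exosomes than in B16 cells, by 46.5-fold and 5615-fold. The miR-100-5p value rests on reads told apart from miR-99a-5p at a single base. As 1 entry that pair, with most of its reads from miR-99a-5p, gave 1.40. The let-7 passenger of the same cluster, let-7a-2-3p, was listed at 0 in all 3 libraries. On chromosome 16 miR-99a-5p was level in share, while let-7c-1-3p had 13 reads in JB6 exosomes against 473 in B16 cells, 20.6-fold lower (11.95 to 39.1), and miR-125b-2-3p was 3.77-fold lower. On chromosome 17 miR-99b-3p stayed within 2-fold in share, at a ratio of 1.34. There miR-99b-5p, miR-125a-5p and miR-125a-3p were 4.40-fold, 2.72-fold and 60.4-fold higher in JB6 exosomes, the last with an interval of 53.3 to 68.6. let-7e-5p, encoded between them, had 46 reads in B16 exosomes, 1702 in JB6 exosomes and 11265 in B16 cells, and was 3.75-fold lower in JB6 exosomes than in B16 cells (3.57 to 3.95), which DESeq2 factors turned to a ratio of 1.59. Entries of a single cluster thus did not move as a block. Of 6 let-7 arms listed for these clusters, 4 were lower in JB6 exosomes than in B16 cells. Among all 501 evaluated miRNAs 60.7% were lower in this comparison. Of the remaining arms 1 was neither and 1 was listed at 0. TMM ended the call for let-7e-5p, at a ratio of 0.678. DESeq2 factors left let-7c-1-3p as the 1 arm lower, with let-7a-5p at 0.799 and let-7c-5p at 0.982, and put let-7e-3p higher, at 3.32, while the authors' totals put let-7e-3p lower, at 0.489. let-7a-5p and let-7c-5p are also made at other loci.

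Arm balance was then set against that of all hairpins with both arms listed above 0 in both deep libraries, 64 in all. Of these, 62.5% had 3p odds at least 2-fold higher in JB6 exosomes than in B16 cells with an interval that excluded 1, and 26.6% had them lower. miR-125a (22.2-fold, 19.5 to 25.3) and miR-125b (11.8-fold, 11.03 to 12.6) were among those higher and ranked 11 and 18 from the top. miR-10a, miR-10b and miR-99b were among those lower. For miR-99b the odds were 3.28-fold lower (3.14 to 3.43). With 89.1% of these hairpins past 2-fold in either direction, a shift of arm balance as such did not set these families apart.

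**Figure D4:**
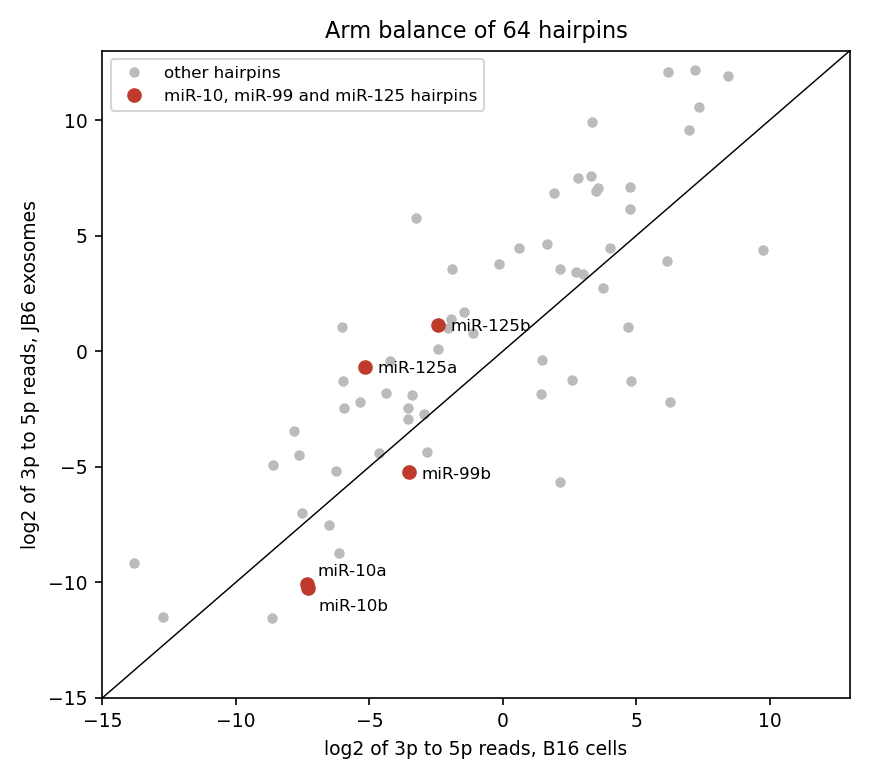
Log2 ratio of 3p to 5p reads of 64 hairpins in JB6 exosomes (vertical axis) and B16 cells (horizontal axis), with the line of equal balance. The points of miR-125a and miR-125b (both 3p arms summed) lie above the line and those of miR-10a, miR-10b and miR-99b below it.

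Across the members, a size rule of 2-fold with a counting interval that excluded 1 was applied to every miRNA with 30 or more reads in a pair of libraries. For B16 exosomes over B16 cells 9 of 10 members could be evaluated. 1 was higher (miR-100-5p), where 8.53% of all 422 evaluated miRNAs were higher, and 2 were lower (miR-99b-5p and miR-125a-5p), where 7.82% were lower. miR-10b-3p was not resolved. The median log2 ratio was -0.21 over those members and 1.82 over all evaluated miRNAs, where listed zeros were taken as 9 reads. In either direction 16.4% were called. Over entries listed in both libraries the medians were -0.41 for 8 members and 0.03 for 144 miRNAs. Reads scaled by TMM put 7 members lower, since that scaling moved every log2 ratio by -1.02, and the authors' totals, which moved them by -4.08, put 8 lower and none higher.

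For B16 over JB6 exosomes all 10 members were evaluated. 5 were lower (miR-99b-5p, miR-99b-3p, miR-125a-5p, miR-125b-5p and miR-125b-1-3p), where 11.7% of 300 miRNAs were lower, and 0 were higher, where 31.3% were, with 43.0% called in either direction. The median log2 ratio was -0.97 over the members and 2.85 over all evaluated miRNAs. TMM and DESeq2 factors, which moved every log2 ratio by -2.37 and -2.71, put 9 members lower, and the authors' totals, which moved it by -3.89, put 10 lower. miR-99b-3p, at a ratio of 0.488 on 19 reads (0.293 to 0.763), lay just inside the rule, and miR-100-5p at 0.534 just outside it.

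For JB6 exosomes over B16 cells 5 of 10 members were higher (miR-99b-5p, miR-100-5p, miR-125a-5p, miR-125b-5p and miR-125b-1-3p), where 26.1% of 501 miRNAs were higher. 1 was lower (miR-10b-3p, 5.93-fold, 5.02 to 7.05), where 60.7% were, with 86.8% called in either direction. The median log2 ratio was 0.997 over the members and -1.75 over all evaluated miRNAs. TMM, DESeq2 and the total without the most abundant miRNAs moved every log2 ratio by 1.35, 2.58 and 0.62, and put 9, 9 and 8 members higher. The comparisons share libraries, so they are not independent of each other.

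**Figure D5:**
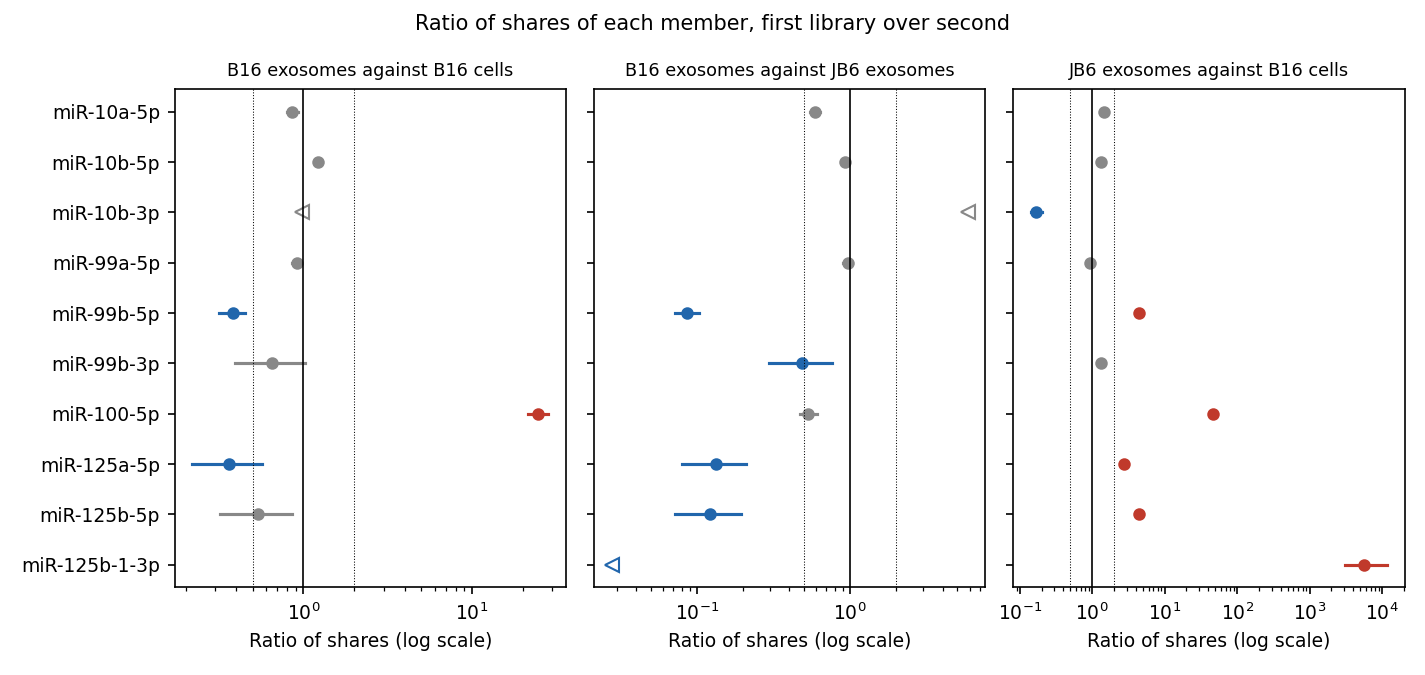
Share ratio (log axis) of each member for B16 exosomes over B16 cells, B16 over JB6 exosomes, and JB6 exosomes over B16 cells, with exact 95% counting intervals. Red and blue mark members higher and lower by the 2-fold rule, open triangles mark upper limits from a listed 0, miR-125b-1-3p has too few reads for the first panel, and miR-100-5p is the member higher in both exosome libraries than in B16 cells, which for B16 exosomes falls short of the rule under the authors' totals.

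The remaining Hox-cluster miRNAs were set beside miR-10a and miR-10b. miR-196b-5p had 44 reads in B16 exosomes, 27 in JB6 exosomes and 13473 in B16 cells, so its share was 160-fold higher in B16 than in JB6 exosomes (97.1 to 269). miR-615-3p had a listed 0, 59466 and 173 reads, and was 606-fold higher in JB6 exosomes than in B16 cells (522 to 708). miR-196a-5p had a listed 0, 501 and 29 reads, 30.5-fold higher in JB6 exosomes than in B16 cells (20.9 to 45.9). miR-615-5p, at 0 in both B16 libraries, had 197 reads in the JB6 exosome library. The miR-196b-5p difference between the exosome libraries kept its direction and stayed past 2-fold under every scaling tried, between 10.8 and 109.9 with the alternatives. So did the differences of miR-615-3p, miR-196a-5p and miR-615-5p between JB6 exosomes and B16 cells. Between the exosome libraries the miR-615-5p difference was not resolved as a share, since its listed 0 allows up to 9 reads. Of the alternatives, only the authors' totals put miR-615-5p lower in B16 than in JB6 exosomes.

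Likeness to other miRNAs was measured as the largest difference in log2 share, centred over the 3 libraries, among 132 miRNAs listed in all of them. Members were left out as candidates, so each order below is among non-members, and likeness between members was not measured. The entries closest to miR-10b-5p were miR-199a-3p and miR-199b-3p, which had identical counts, at a difference of 0.16, and they were closest to miR-10a-5p at 0.23. let-7b-5p was closest to miR-99a-5p at 0.17, before miR-199a-3p at 0.30, and to miR-99b-3p at 0.39, before miR-192-5p at 0.42. miR-1198-5p was closest to miR-125b-5p at 0.19 and to miR-99b-5p at 0.29, with miR-218-5p next at 0.23 and 0.49. miR-218-5p was closest to miR-125a-5p at 0.35, before miR-674-3p at 0.47. For miR-100-5p the nearest were miR-127-3p at 0.62 and miR-379-5p at 1.05. miR-127-3p had 32 reads in B16 exosomes, 5685 in JB6 exosomes and 115 in B16 cells. With 3 libraries these are descriptions of level patterns.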

How the data were processed

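Mature miRNAs were read from 3 small-RNA libraries, 1 per group, grouped by their labels. Tools in the submitters' processing notes are BWA and bcl2fastq, with mouse build mm10. Versions, adapter trimming, the annotation and the handling of multi-matching reads are not given here. The deposited counts are total counts per mature miRNA, per the file headers, all whole numbers with nothing listed between 1 and 9, and were taken as raw reads. The deposited normalized value, in RPM, has no stated denominator, and dividing the authors' counts by it gave a total of 847694 in B16 exosomes, 5626936 in JB6 exosomes and 8721363 in B16 cells.

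Shares of the summed miRNA counts, share ratios and odds ratios were computed with exact (Clopper-Pearson or conditional) 95% intervals in Python 3.11.15 and scipy 1.17.1, and the scripts were tested on simulated data. Intervals cover counting error only, since no molecular identifiers are named and PCR copies are not independent molecules. No test across libraries was run. A listed 0 was taken as 9 reads, as a bound. Alternatives used TMM (edgeR 4.0.16) and DESeq2 1.42.0 factors, other totals, minimums and merged entries. Members and lists were chosen with earlier results of these data known. The text names all members, the other arms of their hairpins, the let-7 arms of their clusters and Hox-cluster miRNAs. It also names the 2 non-member miRNAs closest to each member listed in all libraries.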

Additional observations from a re-analysis of the deposited data

How the results depend on the processing

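Scaling set the balance of calls. For B16 exosomes over B16 cells, against 1 member higher and 2 lower, TMM gave 7 lower with a median log2 ratio of -1.23. DESeq2 factors gave 3 lower with a median of -0.34. The authors' totals gave 0 higher and 8 lower, with a median of -4.29 and a miR-10b-5p ratio of 0.0728. A whole interval beyond 2-fold left 1 lower. Counting pairs that differ at 1 base as 1 entry, an alternative chosen after seeing the data, left 0 higher. There miR-100-5p was counted with miR-99a-5p, which held most reads of that pair. For B16 over JB6 exosomes, against 5 lower, TMM gave 9 (median -3.34) and DESeq2 9 (-3.67). The total without the most abundant miRNAs gave 7 lower (-1.52), with miR-10a-5p at 0.403 and miR-100-5p at 0.366. The authors' totals gave 10 lower (-4.86), with an upper limit of 0.393 for miR-10b-3p. For JB6 exosomes over B16 cells, against 5 higher and 1 lower, TMM gave 9 higher (median 2.35), DESeq2 9 higher and 0 lower (3.58), the total without the most abundant miRNAs 8 higher (1.62), and the authors' totals a median of 0.81. The miR-99a-5p ratio there turned to 2.40 with TMM and 5.63 with DESeq2, and the miR-10b-3p ratio to 1.01 with DESeq2. Paralogue and arm shares are the same with the authors' values by construction, since those scale all counts of a library alike. A passenger listed at 0 gives a share of 0% if taken as 0, in B16 exosomes for every hairpin but miR-99b, in JB6 exosomes for miR-99a and miR-100, and in B16 cells for miR-100. Read minimums of 100 or none moved no count by over 1.5 times. The depth of the B16 exosome library limits every statement on passengers there. The rescaled let-7 and Hox-cluster ratios were also chosen after seeing the data. No paired analysis was possible because each group has 1 library.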

Other observations

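3 more entries share the miR-125 seed, and were looked up after the member values were seen. miR-6367 and miR-6394 were listed at 0 in all libraries. miR-351-5p, from an X-linked cluster, was listed at 0 in B16 exosomes, with 58 reads in JB6 exosomes (12.9 RPM) and 4843 in B16 cells (611 RPM), a level in B16 cells close to the 729 RPM of miR-125b-5p. The 3p odds of its hairpin were 133-fold higher in JB6 exosomes than in B16 cells (89.0 to 201). Of the 64 hairpins compared, 62.5% had 3p odds at least 2-fold higher.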
